A study of Mus musculus with 10 samples.

Results

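Meiotic recombination genes were followed here as 10 genes picked by symbol, Spo11, Mei1, Mei4, Prdm9, Dmc1, Hormad1, Hormad2, Trip13, Msh4 and Msh5, out of the 36066 genes in the expression table. All 10 were present in the table. They were read in 10 RNA-seq libraries of mouse cells with the strain label C57BL6, 2 from each of 5 groups. Female ESCs came from fertilized Actin-GFP embryos, and parthenogenetic ESCs (pESCs) from chemically activated oocytes of Actin-GFP mice, so that pESCs carry maternal chromosomes alone. ESC-PGCLCs and pESC-PGCLCs are primordial germ cell-like cells that were induced from these stem cells through epiblast-like cells, with activin A and bFGF for 2 days and then BMP4, SCF, EGF and LIF for 4 days per the labels, and sorted as CD61 and SSEA1 double-positive cells. PGCs are primordial germ cells from female embryos, sorted with the same surface markers or with SSEA1 alone. No embryonic day is labelled for the PGC libraries. The study describes the libraries of a group as biological replicates, meaning separate mice or replicates of cell studies, while the labels tie no library to an animal or a culture.

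Meiotic recombination starts when SPO11 cuts both DNA strands at sites that PRDM9, a histone methyltransferase with DNA-binding zinc fingers, has marked. MEI1 and MEI4 are needed for the cutting, and HORMAD1 and HORMAD2 coat the unsynapsed chromosome axis on which it takes place. DMC1, a recombinase used in meiosis, then pairs the broken end with the homologous chromosome, the MSH4 and MSH5 heterodimer stabilises the joint molecules that can become crossovers, and the ATPase TRIP13 removes the HORMADs from synapsed axes. TRIP13 also works in the spindle checkpoint of dividing somatic cells. In female mice germ cells enter meiosis in the fetal ovary, after they have reached the gonad as PGCs.

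The upstream sequences of the genes came from RefSeq (GRCm38.p6), whose promoter table held 11 windows for 9 of the 10 genes, and the 250 bases before the annotated start were read from each. Both strands were searched for CACGTG, the E-box bound by MAX and its partners, and for GCGGGAA, which matches the E2F motif and reads as TTCCCGC on the opposite strand, because MAX and E2F6 belong to the PRC1.6 complex known to repress germ cell genes in stem cells. Matches were found upstream of the RefSeq starts of Hormad1, Msh5 and Prdm9 and are in capitals. The windows of Mei4, which was low in stem cells, and of Trip13, which was not, are shown beside them and hold neither set of letters.
Hormad1 (chr3:95559427-95559676, plus strand): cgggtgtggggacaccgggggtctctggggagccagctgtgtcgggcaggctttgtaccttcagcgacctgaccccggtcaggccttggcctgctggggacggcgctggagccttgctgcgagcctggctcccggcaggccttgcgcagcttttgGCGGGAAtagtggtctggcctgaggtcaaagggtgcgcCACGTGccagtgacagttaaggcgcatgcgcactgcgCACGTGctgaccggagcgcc
Msh5 (chr17:35046623-35046872, minus strand): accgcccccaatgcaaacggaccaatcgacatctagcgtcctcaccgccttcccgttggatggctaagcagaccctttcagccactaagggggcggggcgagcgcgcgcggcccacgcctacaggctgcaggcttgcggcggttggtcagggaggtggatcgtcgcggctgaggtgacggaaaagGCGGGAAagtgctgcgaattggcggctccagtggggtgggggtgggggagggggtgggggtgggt
Prdm9 (chr17:15564355-15564604, minus strand): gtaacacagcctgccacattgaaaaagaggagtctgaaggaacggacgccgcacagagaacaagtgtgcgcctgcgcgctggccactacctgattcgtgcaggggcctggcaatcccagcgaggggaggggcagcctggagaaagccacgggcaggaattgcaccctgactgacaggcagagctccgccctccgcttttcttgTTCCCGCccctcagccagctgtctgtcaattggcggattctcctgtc
Mei4 (chr9:81863420-81863669, plus strand): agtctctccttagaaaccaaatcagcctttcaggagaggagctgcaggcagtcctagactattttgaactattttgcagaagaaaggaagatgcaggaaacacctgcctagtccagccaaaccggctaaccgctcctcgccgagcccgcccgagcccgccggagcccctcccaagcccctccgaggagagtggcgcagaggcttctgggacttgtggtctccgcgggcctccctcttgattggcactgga
Trip13 (chr13:73937768-73938017, minus strand): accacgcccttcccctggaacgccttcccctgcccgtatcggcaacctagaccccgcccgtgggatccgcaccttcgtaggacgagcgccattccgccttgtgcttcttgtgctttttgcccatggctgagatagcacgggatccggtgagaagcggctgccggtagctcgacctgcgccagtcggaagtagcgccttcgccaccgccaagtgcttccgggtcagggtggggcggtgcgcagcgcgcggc
The Hormad1 window held CACGTG starting 57 and 20 bases before the start, and GCGGGAA starting 95 bases before it. GCGGGAA began 65 bases before the start of Msh5, and TTCCCGC 47 bases before that of Prdm9. Of the 32851 windows in the table, 6.02% held CACGTG, 3.82% held GCGGGAA on either strand, and 0.338% held both, as the Hormad1 window did. The ratio of observed to expected CpG was 0.972 for Trip13, 0.822 for Msh5, 0.671 for Hormad1, 0.579 for Mei1, 0.563 for this Prdm9 window, 0.56 for Mei4, 0.498 for Dmc1, 0.412 for Hormad2, 0.411 for the other Prdm9 window and 0.347 for Msh4, against a median of 0.374 over all windows. These matches describe the letters and were not tested as binding sites. The RefSeq starts of Mei1, Msh4 and the other Prdm9 window lie inside the gene, 12480, 1247 and 1023 bases from its start in GENCODE, the annotation used for exon lengths. Those of Msh5, Hormad2 and Trip13 lie 123, 23 and 17 bases inside it. The GCGGGAA of Msh5 therefore falls within the gene as GENCODE draws it.

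Depth and marker genes were checked before the genes were compared. The authors deposited TPM, a read count per gene length that adds up to an equal sum for every library. Multiplying TPM by exon length gave whole reads for 94.7% to 95.5% of values in a library (within 0.05 reads), with 6779795 to 18572787 reads on genes, fewest in the 2 ESC-PGCLC libraries. The 7 pluripotency markers summed to 1045 to 1585 TPM in the 4 stem cell libraries and to 137 to 220 TPM in the 6 germ cell libraries, and the 12 germ cell markers to 409 to 932 TPM and 5719 to 8016 TPM. Dppa3 made up most of the germ cell marker sum, at 353 to 873 TPM in stem cells and 3165 to 5681 TPM in germ cell libraries. Prdm14 overlapped between them, at 10.9 to 18.1 TPM and 13.8 to 21.7 TPM, whereas the other markers of that list were higher in the germ cell libraries. Pou5f1, a pluripotency gene that PGCs are known to keep on, stood at 7.49 to 23.5 TPM in the stem cells and at 0 to 3.14 TPM in the germ cell libraries, so the germ cell libraries go against this marker. Its stem cell values were themselves far below those of Nanog, although the paper reports high Oct4 (Pou5f1) expression in both kinds of stem cell. Whether Pou5f1 was measured well in any group was not tested. Sox2, of the same list, was at 32.7 and 44.6 TPM in ESCs, and higher in ESC-PGCLCs, at 97.3 and 110 TPM, and PGCs, at 83.4 and 75.1 TPM. In pESC-PGCLCs Sox2 was at 23.9 and 29.7 TPM, below the 35.9 and 62.4 TPM of pESCs. Nanog fell, from 403 to 674 TPM in stem cells to 24.2 to 43.8 TPM in germ cell libraries. The 9 measured gonadal somatic markers summed to 4.87 to 5.45 TPM in stem cells, 18.4 to 23.4 TPM in ESC-PGCLCs, 38.9 to 45.4 TPM in pESC-PGCLCs and 75.3 to 86.8 TPM in PGCs, although the methods describe PGCLC induction without gonadal cells before the sort. The 8 blood markers, nearly all haemoglobin genes by level, summed to 0.0678 to 4.44 TPM in stem cells, 487 to 556 TPM in ESC-PGCLCs, 2870 to 3398 TPM in pESC-PGCLCs and 1961 to 2147 TPM in PGCs, while Ptprc, which marks white blood cells, was at most 0.103 TPM everywhere. The 8 fibroblast markers, for the feeder cells, summed to 0.193 to 0.512 TPM in stem cells and 4.08 to 11.8 TPM in the germ cell groups. These markers move with the step from stem cells to germ cells below, and their part in the results was not tested. In bulk RNA fewer cells of a type and less RNA per cell cannot be told apart.

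Genes were tested with limma on log2(TPM + 1), over the 27259 genes that reached 0.1 TPM in 2 or more libraries, and a gene was called when its Benjamini-Hochberg adjusted p was under 0.05 and it changed at least 2-fold on that scale. Because 1 is added, log2 fold changes understate the change of genes below a few TPM, so ratios of the TPM themselves are given beside them. All 10 genes passed the filter. Within the stem cell libraries alone 8 would have passed, and Spo11 and Mei1 passed through the germ cell libraries. An exact permutation test, two-sided, of 2 libraries against 2 gives no p smaller than 0.333, so each adjusted p depends on the variance model of limma.

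From stem cells to PGCLCs, 6 of the 10 genes were called higher for each origin and none lower. They were Spo11, Mei4, Prdm9, Hormad1, Hormad2 and Msh4 both times. Over all genes tested, 15.3% were called higher and 14.5% lower in ESC-PGCLCs against ESCs, and 20.8% and 6.8% in pESC-PGCLCs against pESCs. With median centring, in which each library's median over genes of 1 TPM or more in all libraries is set equal, the calls over all genes in pESC-PGCLCs turned from 5681 higher and 1854 lower to 2280 and 5010, and 3 of the 10 genes, Spo11, Mei4 and Hormad1, were called higher. The median log2 fold change of the 10 genes was 1.46 for ESCs, against 0.049 over all genes, and 1.31 for pESCs, against 0.22.

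**Figure D1:**
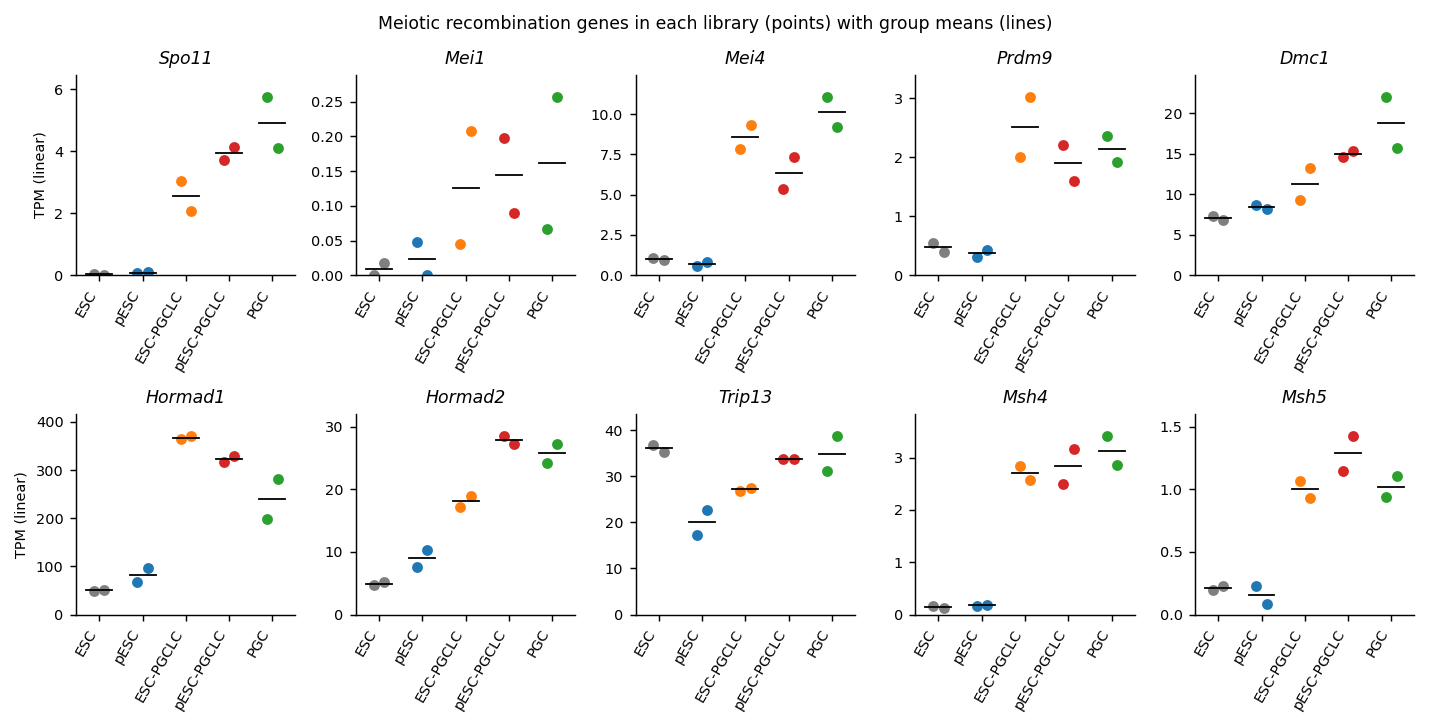
TPM of each recombination gene (linear axes from 0, a separate scale per gene) in the 10 libraries, with points for the 2 libraries of a group and a line at their mean. Spo11 stays at or under 0.118 TPM in the stem cells and reaches 2.07 TPM or more in every germ cell library. Trip13 has its highest mean in ESCs (36.1 TPM), close to that of PGCs (34.9 TPM), whose libraries at 31.1 and 38.7 TPM lie on both sides of it.

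Of the 10 genes, those of break formation (Spo11, Mei1, Mei4 and Prdm9) stood at no more than 1.08 TPM in stem cells. Spo11 (chr2:172977700-172993576, mm10, plus strand), the enzyme that makes the breaks, was at 0.0554 and 0.0215 TPM in ESCs, 0.058 and 0.118 TPM in pESCs, 3.06 and 2.07 TPM in ESC-PGCLCs, 3.71 and 4.15 TPM in pESC-PGCLCs, and 5.76 and 4.09 TPM in PGCs. The stem cell and germ cell libraries did not overlap. Over all genes, 38.4% lay wholly higher in ESC-PGCLCs than in ESCs and 50.0% in pESC-PGCLCs than in pESCs, beside 9 and 10 of the 10. In reads these values were 2 and 1 in ESCs, 2 and 4 in pESCs, 57 and 33 in ESC-PGCLCs, 124 and 153 in pESC-PGCLCs, and 144 and 145 in PGCs. Scaled to depth, the pooled reads of ESC-PGCLCs were 71.7 times those of ESCs (95% exact counting interval 23.8 to 354), and those of pESC-PGCLCs 45 times those of pESCs (20.4 to 124), intervals that cover counting error only. On the log2(TPM + 1) scale Spo11 rose by 1.76 ± 0.21 (SE, limma, adjusted p = 0.000281) from ESCs and by 2.18 ± 0.21 (adjusted p = 0.000123) from pESCs.

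Mei4 (chr9:81863670-82206007, plus strand), whose protein works with REC114 and IHO1 in break formation, was at 1.08 and 0.939 TPM in ESCs, 0.58 and 0.812 TPM in pESCs, 7.8 and 9.3 TPM in ESC-PGCLCs, 5.36 and 7.35 TPM in pESC-PGCLCs, and 11.1 and 9.21 TPM in PGCs. Its mean TPM was 8.47 times higher in ESC-PGCLCs than in ESCs and 9.13 times higher in pESC-PGCLCs than in pESCs, and the log2 fold changes were 2.25 ± 0.20 (SE, limma, adjusted p = 5.96e-05) and 2.11 ± 0.20 (adjusted p = 0.000108). Prdm9 (chr17:15543079-15564354, minus strand), which places the breaks, was measurable but low in stem cells, at 0.554 and 0.391 TPM in ESCs and 0.317 and 0.428 TPM in pESCs, and stood at 2 and 3.02 TPM in ESC-PGCLCs, 2.21 and 1.6 TPM in pESC-PGCLCs and 2.37 and 1.93 TPM in PGCs. Its mean TPM was 5.32 times higher in ESC-PGCLCs than in ESCs and 5.11 times higher in pESC-PGCLCs than in pESCs, and on the log2(TPM + 1) scale it rose by 1.24 ± 0.21 and 1.08 ± 0.21 (SE, limma, adjusted p = 0.00168 and 0.00377). The change from pESCs was under 2-fold without pESC-PGCLC replicate 1 (0.92), with quantile normalization (0.73) and with median centring (0.34).

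Mei1 (chr15:82069996-82126814, plus strand), also needed for break formation, was hardly detected anywhere. It had 0 and 1 reads in ESCs, 2 and 0 in pESCs, 1 and 4 in ESC-PGCLCs, 8 and 4 in pESC-PGCLCs, and 2 and 11 in PGCs, at most 0.257 TPM. Pooled reads were 12 times higher in ESC-PGCLCs than in ESCs (95% exact counting interval 1.34 to 565) and 5.84 times higher in pESC-PGCLCs than in pESCs (1.3 to 53.8). With log2 fold changes of 0.15 and 0.16 Mei1 was not called (limma, adjusted p = 0.31 and 0.303). When voom, limma's method for counts, was run on the recovered reads, Mei1 was called in ESC-PGCLCs against ESCs, with a log2 fold change of 2.76. For this gene 3 reads corresponded to 0.0532 to 0.156 TPM, depending on the library.

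Both HORMA-domain genes of the chromosome axis rose in the PGCLCs of both origins, from different levels. Hormad1 (chr3:95559677-95587671, plus strand) had the highest TPM of the 10 genes in every library, with 49.3 and 51.3 TPM in ESCs, 68.5 and 97.5 TPM in pESCs, 364 and 370 TPM in ESC-PGCLCs, 317 and 329 TPM in pESC-PGCLCs, and 198 and 282 TPM in PGCs. Hormad2 (chr11:4345814-4441105, minus strand) was at 4.64 and 5.23 TPM in ESCs, 7.62 and 10.3 TPM in pESCs, 17.2 and 19 TPM in ESC-PGCLCs, 28.5 and 27.2 TPM in pESC-PGCLCs, and 24.3 and 27.2 TPM in PGCs. Both genes were transcribed in stem cells already. The ESC libraries were the lowest for both, and the highest group differed, ESC-PGCLCs for Hormad1 and pESC-PGCLCs for Hormad2.

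Hormad1 rose by 2.84 ± 0.21 (SE, limma, log2(TPM + 1), adjusted p = 2.67e-05) from ESCs to ESC-PGCLCs and by 1.97 ± 0.21 (adjusted p = 0.000205) from pESCs to pESC-PGCLCs. Hormad2 rose by 1.69 ± 0.17 (adjusted p = 0.000108) and 1.55 ± 0.17 (adjusted p = 0.000213) in the same comparisons. Of the 100-base stretches in Hormad1 transcripts, 9.36% also occur in Gm15529, and 0.56% of those of Msh4 in other genes, so reads there could be split, whereas the other 8 genes shared none. With median centring Hormad2 was below 2-fold for pESCs, at 0.82, as it was with quantile normalization, at 0.92.

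The MutS-homologue pair of crossover formation was low in stem cells. Msh4 (chr3:153857149-153906138, minus strand) was at 0.173 and 0.122 TPM in ESCs, 0.165 and 0.184 TPM in pESCs, 2.84 and 2.57 TPM in ESC-PGCLCs, 2.5 and 3.16 TPM in pESC-PGCLCs, and 3.41 and 2.86 TPM in PGCs. Its pooled reads were 18.8 times higher in ESC-PGCLCs than in ESCs (95% exact counting interval 11.9 to 31.2) and 16.3 times higher in pESC-PGCLCs than in pESCs (10.5 to 26.7). The log2 fold changes were 1.69 ± 0.17 and 1.70 ± 0.17 (SE, limma, adjusted p = 0.000114 and 0.000141), and with median centring that from pESCs was 0.97, just under 2-fold.

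Msh5 (chr17:35028605-35046745, minus strand), whose protein binds MSH4, was at 0.196 and 0.228 TPM in ESCs, 0.227 and 0.084 TPM in pESCs, 1.06 and 0.934 TPM in ESC-PGCLCs, 1.15 and 1.42 TPM in pESC-PGCLCs, and 0.936 and 1.1 TPM in PGCs. The stem cell libraries again lay apart from the germ cell libraries. Pooled reads were 4.69 times higher in ESC-PGCLCs than in ESCs (95% exact counting interval 2.84 to 7.92) and 8.31 times higher in pESC-PGCLCs than in pESCs (4.85 to 15.3). On the log2(TPM + 1) scale the differences, 0.72 ± 0.14 and 0.98 ± 0.14 (SE, limma, adjusted p = 0.00395 and 0.000893), passed the p threshold and not the 2-fold minimum. With a pseudocount of 0.1 they were 1.81 and 2.49, and Msh5 was called both times. In each germ cell library Msh4 had more TPM than Msh5, on a scale that is per length.

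Dmc1 (chr15:79561497-79605109, minus strand), the meiotic strand-exchange enzyme, was present in stem cells, at 7.27 and 6.87 TPM in ESCs and 8.69 and 8.15 TPM in pESCs. It stood at 9.24 and 13.2 TPM in ESC-PGCLCs, 14.6 and 15.4 TPM in pESC-PGCLCs, and 22 and 15.7 TPM in PGCs. Mean TPM was 1.59 times higher in ESC-PGCLCs than in ESCs and 1.78 times higher in pESC-PGCLCs than in pESCs. The log2 fold changes were 0.58 ± 0.21 (SE, limma, adjusted p = 0.053) and 0.76 ± 0.21 (adjusted p = 0.019), and neither was called.

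**Figure D2:**
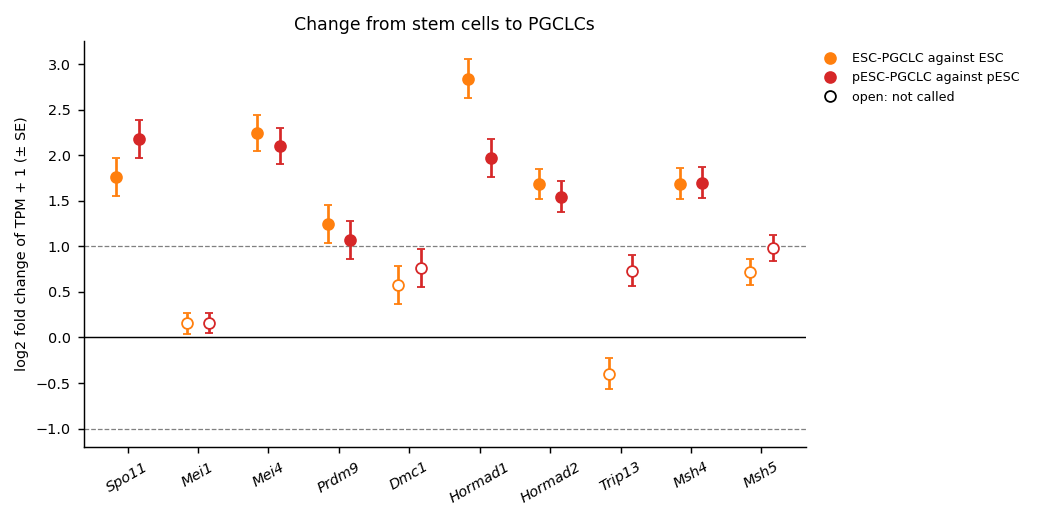
Log2 fold change of TPM + 1 from stem cells to PGCLCs (vertical axis, points with SE) for each gene and both origins, filled where called and open where not, with dashed lines at a 2-fold change. Spo11, Mei4, Prdm9, Hormad1, Hormad2 and Msh4 are called for both origins, and for Trip13 the points lie at -0.40 for ESCs and 0.73 for pESCs.

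Trip13 (chr13:73911347-73937784, minus strand) encodes the ATPase that strips HORMADs from the axis. It was at 36.9 and 35.3 TPM in ESCs and 17.2 and 22.8 TPM in pESCs, and at 26.8 and 27.5 TPM in ESC-PGCLCs, 33.7 and 33.6 TPM in pESC-PGCLCs, and 31.1 and 38.7 TPM in PGCs. The 2 pESC libraries were the lowest of the 10, and ESC-PGCLCs lay below ESCs while pESC-PGCLCs lay above pESCs. The log2 difference between ESC-PGCLCs and ESCs was -0.40 ± 0.17 (SE, limma, adjusted p = 0.0889), and that between pESC-PGCLCs and pESCs 0.73 ± 0.17 (adjusted p = 0.00826, under 2-fold).

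The difference between these changes was itself tested, as the interaction of origin and differentiation, and Trip13 was the only gene of the 10 called, at 1.13 ± 0.24 (SE, limma, adjusted p = 0.012). Over all genes 15.5% were called higher in this interaction and 3.53% lower. Trip13 was not called without ESC replicate 1 (adjusted p = 0.0545), without pESC replicate 1 (0.94), with quantile normalization (0.41), with median centring (0.39) or with voom on reads (0.95). Hormad1 had the next largest interaction, -0.87 ± 0.30 (adjusted p = 0.0745), and was called with quantile normalization (-1.27), median centring (-1.62), voom (-1.11) and without pESC replicate 1 (-1.12). For Spo11, Mei1, Mei4, Prdm9, Dmc1, Hormad2, Msh4 and Msh5 the interaction lay between -0.17 and 0.41 and was not called.

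Between pESCs and ESCs none of the 10 genes was called by limma, with 3 at an unadjusted p under 0.05, and 0.165% of all genes were called higher and 0.616% lower. The 3 genes were Hormad1, with a log2 fold change of 0.69 ± 0.21 (SE, adjusted p = 0.136), Hormad2, with 0.74 ± 0.17 (adjusted p = 0.0718), and Trip13, with -0.83 ± 0.17 (adjusted p = 0.0583). Their pESC libraries did not overlap with the ESC libraries. Over all genes, 11.7% lay wholly higher and 31.3% wholly lower in pESCs, beside 4 and 2 of the 10. Mean TPM in pESCs was 1.65 times that in ESCs for Hormad1, 1.82 times for Hormad2 and 0.554 times for Trip13. Hormad2 was called with median centring, at 1.07, and Trip13 without pESC replicate 2, at -1.02.

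Among PGCLCs, none of the 10 genes was called between the pESC and ESC origins by limma, with 1 at an unadjusted p under 0.05, while 10.3% of all genes were called higher in pESC-PGCLCs and 3.08% lower. That gene was Hormad2, 0.60 ± 0.17 higher in pESC-PGCLCs (SE, adjusted p = 0.0367), which is less than 2-fold. Dmc1 and Spo11 differed by 0.40 ± 0.21 and 0.48 ± 0.21, with the pESC-PGCLC libraries above the ESC-PGCLC libraries (adjusted p = 0.219 and 0.148). Over all genes, 41.8% lay wholly higher and 17.9% wholly lower in pESC-PGCLCs, beside 5 and 2 of the 10. Mei4 differed by -0.39 ± 0.20 (adjusted p = 0.214). Msh4 differed by 0.05 ± 0.17 (adjusted p = 0.91). The haemoglobin and gonadal somatic sums given above were higher in pESC-PGCLCs than in ESC-PGCLCs, and their part here was not tested.

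PGCs were compared with both kinds of PGCLC and with the stem cells. Against the mean of ESCs and pESCs, 7 of the 10 genes were called higher in PGCs and none lower, beside 25.3% and 8.06% of all genes. These were the 6 genes named above and Dmc1, which was 1.17 ± 0.18 higher (SE, limma, adjusted p = 0.000802) and was under 2-fold, at 0.94 without PGC replicate 1, at 0.45 with quantile normalization and at 0.41 with median centring. Prdm9, at 1.14 ± 0.18 (adjusted p = 0.000881), was not called with quantile normalization (0.58) or median centring (0.38). The median log2 difference of the 10 genes was 1.48, against 0.28 over all genes.

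Against the PGCLCs no gene of the 10 was called in PGCs by limma. The comparison with ESC-PGCLCs had 4 of the 10 at an unadjusted p under 0.05, and 12% of all genes were called higher and 1.88% lower. Spo11 was 0.73 ± 0.21 higher and Dmc1 0.70 ± 0.21 higher in PGCs (SE, adjusted p = 0.0332 and 0.038), both under 2-fold, and their PGC libraries lay above the ESC-PGCLC libraries, as 50.0% of all genes and 5 of the 10 did. Hormad1 was lower in PGCs, with a log2 difference of -0.63 ± 0.21 (adjusted p = 0.055), and with median centring, at -1.24, it was called. The fourth gene, Hormad2, was 0.48 ± 0.17 higher (adjusted p = 0.0621). Against pESC-PGCLCs 1 gene was at an unadjusted p under 0.05, Mei4 at 0.61 ± 0.20 (adjusted p = 0.0911), and 2.07% of all genes were called higher and 1.6% lower. These comparisons share the PGC libraries. Voom on the recovered reads likewise called 0 of the 10 genes in PGCs against either PGCLC group, between the PGCLC groups and between the stem cell groups.

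**Figure D3:**
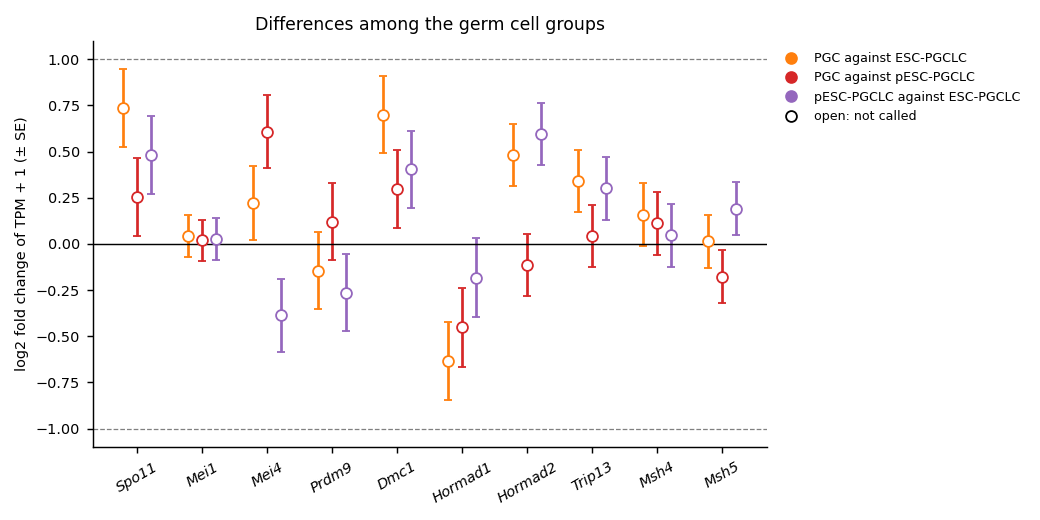
Log2 difference of TPM + 1 (points with SE) for each gene in PGCs against ESC-PGCLCs, PGCs against pESC-PGCLCs and pESC-PGCLCs against ESC-PGCLCs, open because none was called. All points lie within the dashed lines at a 2-fold difference, from -0.63 for Hormad1 to 0.73 for Spo11, both in PGCs against ESC-PGCLCs.

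In order of group means, Spo11, Dmc1 and Mei1 ran from ESCs through pESCs, ESC-PGCLCs and pESC-PGCLCs to PGCs, as Msh4 did. For Mei1 and Prdm9 the libraries of the 3 germ cell groups overlapped, and for Msh4 those of pESC-PGCLCs overlapped with both other groups. For Msh5 the highest mean was that of pESC-PGCLCs, and its 2 libraries lay above those of PGCs and ESC-PGCLCs, which overlapped. Over all genes, 16.6% lay wholly higher in pESC-PGCLCs than in PGCs, beside 3 of the 10. Against ESC-PGCLCs this share was 41.8%, beside 5 of the 10. Across the 10 libraries, the log2(TPM + 1) of a gene followed the mean of the other 9 with a Pearson r of 0.96 for Spo11, 0.96 for Mei4, 0.98 for Msh4, 0.95 for Msh5, 0.93 for Prdm9, 0.93 for Hormad2, 0.90 for Hormad1, 0.85 for Dmc1, 0.72 for Mei1 and 0.34 for Trip13. These values largely restate the gap between 4 stem cell and 6 germ cell libraries and are given as a description.

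Outside the 10 genes, the patterns most like their mean over the 10 libraries, among 18019 genes of at least 1 TPM in a group, were those of Xk, Magea4, Gm10439, Zfp467 and Ubash3b, each with r of 0.996 or more. Xk averaged 0.371 TPM in ESCs, 0.282 TPM in pESCs, 6.08 TPM in ESC-PGCLCs, 8.82 TPM in pESC-PGCLCs and 9.72 TPM in PGCs. Magea4 averaged 0.146 TPM in ESCs and 0 in pESCs, and 7.2, 10.2 and 11.1 TPM in the 3 germ cell groups in the same order.

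The wider recombination pathway was read from curated lists. Of 9 partners of break formation, 7 were called higher and none lower in the PGCLCs of each origin. The shares over all genes were 15.3% higher and 14.5% lower from ESCs, and 20.8% and 6.8% from pESCs. Zcwpw1, the reader of the marks that PRDM9 writes, rose on the log2(TPM + 1) scale by 3.36 ± 0.15 from ESCs and 3.66 ± 0.15 from pESCs (SE, limma, adjusted p = 3.7e-06 and 4.4e-06). Zcwpw1 stood at 0.24 to 0.506 TPM in stem cells and 12.3 to 19.7 TPM in germ cell libraries. Ccdc36, which encodes IHO1, rose by 2.54 ± 0.26 and 2.42 ± 0.26, from at most 0.276 TPM in stem cells to 4.34 TPM or more. Tex15 rose by 2.13 and 2.41. Zcwpw2 rose by 2.02 and 2.36, from at most 0.0865 TPM in stem cells to 2.27 TPM or more. Rec114, whose protein binds MEI4, was already at 60 to 107 TPM in stem cells and at 91.1 to 176 TPM in germ cells.

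Among 18 genes of strand exchange, 7 were called higher and 1 lower in ESC-PGCLCs, and 9 and 1 in pESC-PGCLCs. All genes tested had 15.3% higher and 14.5% lower in ESC-PGCLCs, and 20.8% and 6.8% in pESC-PGCLCs. Meiob, a single-strand binding protein of meiosis, rose by 4.13 ± 0.19 and 4.24 ± 0.19 (SE, limma, adjusted p = 3.8e-06 and 5.5e-06), from 0.0637 to 0.677 TPM in stem cells to 14.2 to 30.5 TPM in germ cells. Mnd1, which with Psmc3ip forms the complex that assists DMC1, rose by 2.91 ± 0.13 and 2.42 ± 0.13. Psmc3ip itself changed by -0.14 ± 0.16 from ESCs, which was not called, and rose by 1.36 ± 0.16 from pESCs, which was. The genes called lower were Hsf2bp from ESCs, which fell by 1.44 on the log2 scale, and Mcmdc2 from pESCs, which fell by 2.04.

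Of 18 genes of crossover formation, 5 were called higher and 3 lower in ESC-PGCLCs, and 8 and 1 in pESC-PGCLCs. The shares over all genes were 15.3% higher and 14.5% lower in ESC-PGCLCs, and 20.8% and 6.8% in pESC-PGCLCs. The median log2 fold change of the list was 0.25 and 0.90, against 0.049 and 0.22 over all genes. Ccnb1ip1, which encodes the ubiquitin ligase HEI10, rose by 3.76 ± 0.23 and 4.88 ± 0.23 (SE, limma, adjusted p = 1e-05 and 6.1e-06), Tex11 by 3.74 ± 0.18 and 3.85 ± 0.18, and the helicase gene Hfm1 by 3.02 ± 0.19 and 2.63 ± 0.19. Cdk2, Rmi1 and 1700102P08Rik were lower in ESC-PGCLCs than in ESCs. The log2 difference was -1.20 for Cdk2 and -2.36 for 1700102P08Rik, and Rmi1 had 6.95 and 7.93 TPM against 17.9 and 14.1 TPM. In pESC-PGCLCs 1700102P08Rik was also lower, at -1.39. Whether 1700102P08Rik belongs among the genes of crossover formation was not checked. Rnf212, a dosage-sensitive crossover gene, stood at 0 to 0.0659 TPM in stem cells and 0.745 to 1.81 TPM in germ cells.

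A further list held genes of the chromosome axis, which the HORMADs coat while it is unsynapsed, and of the synaptonemal complex. Of 12 genes, 11 were called higher in ESC-PGCLCs and 12 in pESC-PGCLCs, with median log2 fold changes of 4.43 and 4.24. Tex12 rose by 7.47 ± 0.19 and 6.52 ± 0.19, the cohesin gene Smc1b by 6.99 ± 0.20 and 6.12 ± 0.20, and the axis gene Sycp3 by 6.90 ± 0.24 and 4.65 ± 0.24 (SE, limma, adjusted p from 1.1e-06 to 8.5e-06). Between the PGCLC groups 1 of the 12 was called higher and 2 lower in pESC-PGCLCs, beside 10.3% and 3.08% of all genes. The median log2 difference was -0.27, against 0.12 over all genes. The lower genes were Sycp3 (difference -1.12 ± 0.24, SE, limma, adjusted p = 0.012) and Sycp1, of the central region of the complex (-1.09 ± 0.14, adjusted p = 0.0013), and the higher gene was Rec8, the meiotic kleisin (1.51 ± 0.20, adjusted p = 0.0014). The list of meiotic entry and its PRC1.6 repressors had 7 of 12 called higher in each origin, with 1 and 0 lower. All genes tested had 15.3% higher and 14.5% lower from ESCs, and 20.8% and 6.8% from pESCs. The genes called higher included the repressor genes Rnf2 and Max from ESCs, and Rnf2 and E2f6 from pESCs. The gene called lower was the repressor gene L3mbtl2. Stra8, the gatekeeper of meiotic entry, was at 2.53 to 5.76 TPM in stem cells, 192 and 212 TPM in ESC-PGCLCs, 410 and 359 TPM in pESC-PGCLCs, and 333 and 343 TPM in PGCs.

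**Figure D4:**
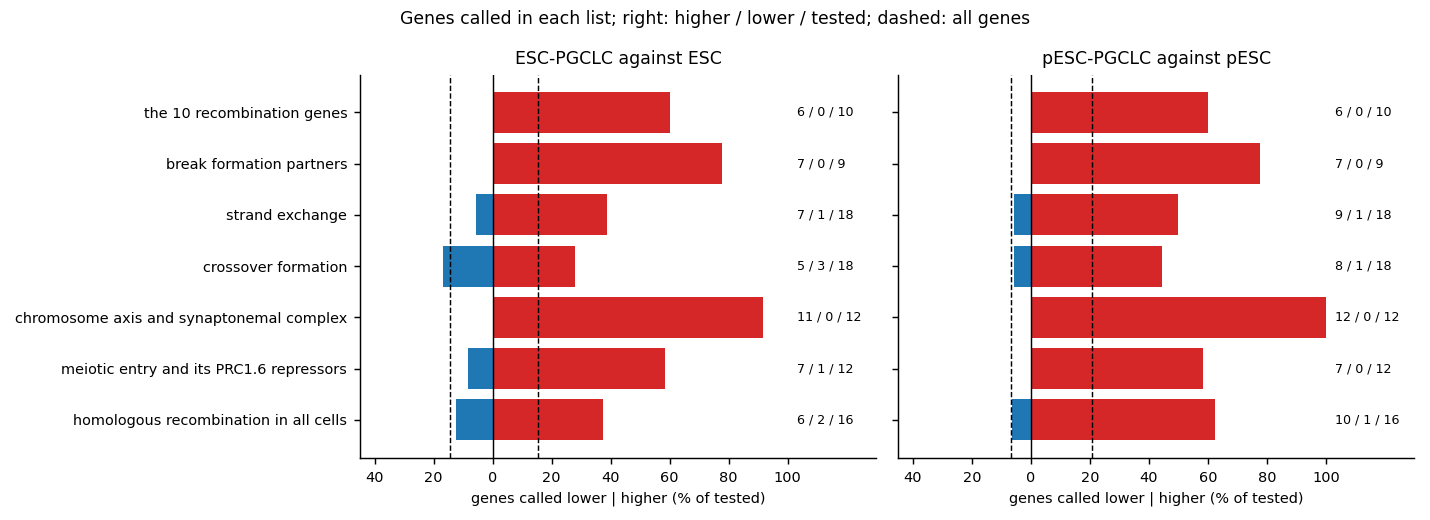
Percent of the tested genes of each list called higher (red, to the right) or lower (blue, to the left) from stem cells to PGCLCs, for ESCs and pESCs, with the counts higher / lower / tested printed beside the bars and dashed lines at the percent of all genes called. The axis and synaptonemal complex list is called higher in 11 and 12 of 12 genes, and the 10 recombination genes in 6 and 6.

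Of 16 recombination genes that all dividing cells use, 6 were called higher and 2 lower in ESC-PGCLCs, and 10 and 1 in pESC-PGCLCs. The shares over all genes were 15.3% and 14.5% in ESC-PGCLCs, and 20.8% and 6.8% in pESC-PGCLCs. Atr, a checkpoint kinase, rose by 2.70 ± 0.17 and 2.66 ± 0.17 (SE, limma, adjusted p = 1.2e-05 and 2e-05), Rbbp8, which encodes the end-resection factor CtIP, by 2.06 ± 0.20 and 2.40 ± 0.20, and Rad50, of the same step, by 2.00 ± 0.20 and 2.26 ± 0.20. H2afx, the histone that is phosphorylated at breaks, was lower in PGCLCs, at -1.18 ± 0.34 and -1.06 ± 0.34 (SE, limma, adjusted p = 0.022 and 0.0353). In PGCs H2afx was at 42.3 and 19.5 TPM, beside 27.9 to 42.3 TPM in stem cells. The other gene called lower in ESC-PGCLCs was Xrcc3, at -1.23 ± 0.24 (SE, limma, adjusted p = 0.00346), while from pESCs its log2 difference was 0.72, which was not called.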

How the data were processed

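The authors used Hisat2 (mm10), then Feature-counts for reads per gene and DESeq2 between groups; the submitters' processing notes also name Bowtie2, RSEM and R 3.4.2. The deposited values are TPM for 36066 gene symbols in 10 libraries, and all value columns were used. The methods describe Smart-seq2 libraries and the labels an NEBNext kit, and they differ on cytokine doses for epiblast-like cells. Counting by strand is not stated in the sources used here.

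TPM were multiplied by GENCODE M21 exon length for the 35861 symbols with 1 gene model to recover reads. Values were analysed as log2(TPM + 1) in R 4.3.3 with limma 3.58.1, a mean for each of 5 groups, empirical Bayes variances with a trend (5 residual and 2.81 prior degrees of freedom) and Benjamini-Hochberg adjustment over 27259 genes. Calls in the 8 comparisons needed an adjusted p under 0.05 and a 2-fold change. Over the libraries 3 reads on a typical gene (median exon length 2182 nt) were 0.116 to 0.338 TPM, for counting error only. Intervals of read ratios are exact binomial intervals conditional on the total. The fit was tested on simulated data.

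The 10 genes and the lists were chosen with earlier results of these data known. Named are all 10 genes in every library, at most the 4 called genes of largest change per list, and the 5 genes of most similar pattern. Other genes were chosen after their values were seen, namely Rec114, Rnf212, Stra8, Pou5f1, Sox2, Nanog, Dppa3, Prdm14, Psmc3ip, Ptprc, H2afx, the genes called lower, Rec8, Sycp1 and the PRC1.6 genes. Some listed genes are not reported here by name. Alternatives tried were no filter, a filter at 1 TPM, a pseudocount of 0.1, quantile normalization, median centring, the compared groups alone, replicate as a block, limma voom on recovered reads, and leaving out each library. The Spo11 promoter was not analysed here. Python 3.11.15, pandas 2.3.3, scipy and matplotlib 3.10.9 made the tables and figures.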

Additional observations from a re-analysis of the deposited data

Results flagged for a closer look

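Trip13 stood out because its change from stem cells to PGCLCs differed between the 2 origins, by a log2 difference of 1.13 ± 0.24 in the interaction term (SE, limma, adjusted p = 0.012). In ESC-PGCLCs against ESCs the log2 difference was -0.40, with 26.8 and 27.5 TPM against 36.9 and 35.3 TPM, which was not called, and it was 0.73 higher in pESC-PGCLCs than in pESCs, 33.7 and 33.6 TPM against 17.2 and 22.8 TPM, under 2-fold. Both ESC-PGCLC libraries lay below both ESC libraries and both pESC-PGCLC libraries above both pESC libraries, as 32.5% and 50.0% of all genes did in the same directions. The call was lost without ESC replicate 1 and without pESC replicate 1, with quantile normalization, with median centring and with voom. Groups of 2 libraries were too small for a check of single outlying libraries.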

How the results depend on the processing

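Of the 80 log2 fold changes (10 genes in 8 comparisons), the 20 that were called kept their direction under every alternative run. Median centring added Hormad2 in pESCs against ESCs (1 gene called), left 3 of 6 genes in pESC-PGCLCs against pESCs, and added Hormad1 in PGCs against ESC-PGCLCs (1 gene called). Centring moved the median change of all genes from 0.22 to -0.51 in pESC-PGCLCs against pESCs, and the calls over all genes there from 5681 higher and 1854 lower to 2280 and 5010. Leaving out each library gave 0 to 1 genes called in pESCs against ESCs, 0 to 1 in the interaction, 6 each time in ESC-PGCLCs against ESCs, 6 to 7 in pESC-PGCLCs against pESCs, 6 to 7 in PGCs against stem cells, and 0 each time in the others. The causes were not tested. In the interaction quantile normalization, median centring and voom each called 1 gene, Hormad1 lower in place of Trip13 higher. The other alternatives kept the number of the 10 genes called within 1.5 times, with 8 from ESCs, 7 from pESCs and 9 in PGCs against stem cells for voom and 7, 7 and 8 for a pseudocount of 0.1. Over all genes the alternatives called 0 to 259 higher and 0 to 694 lower in pESCs against ESCs (45 and 168 as reported), 1460 to 4102 higher and 567 to 1891 lower in pESC-PGCLCs against ESC-PGCLCs (2812 and 839 as reported), 3818 to 7199 higher and 3581 to 5480 lower in ESC-PGCLCs against ESCs (4161 and 3961 as reported), 2280 to 8657 higher and 1562 to 5010 lower in pESC-PGCLCs against pESCs (5681 and 1854 as reported). They called 1727 to 4798 higher and 584 to 4062 lower in the interaction (4236 and 961 as reported), 0 to 5378 higher and 0 to 2003 lower in PGCs against ESC-PGCLCs (3260 and 512 as reported), 0 to 1320 higher and 0 to 821 lower in PGCs against pESC-PGCLCs (564 and 436 as reported), 3090 to 10400 higher and 2087 to 5533 lower in PGCs against stem cells (6883 and 2197 as reported). Replicate numbers recur in each group, but the deviations of same-numbered libraries had correlations from -0.094 to 0.35, above 0.1 for pESCs with PGCs (0.35), ESCs with PGCs (0.14) and ESCs with pESCs (0.12) and not for the other pairs of groups, and nothing in the labels links the numbers, so they were not taken to pair the libraries. With the replicate as a block the calls over all genes in pESCs against ESCs went from 45 higher and 168 lower to 23 and 55, and 6, 6, 7 and 1 of the 10 genes were called from ESCs, from pESCs, in PGCs against stem cells and in the interaction, as without it, and 0 in the other comparisons. Depth limited Mei1, at 0 to 11 reads a library, and Spo11 in stem cells, at 1 to 4.

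Among the changes that were not called, 32 changed sign under some alternative. With median centring, in pESCs against ESCs, Mei4 was 0.087, Msh5 0.26 and Prdm9 0.23. In pESC-PGCLCs against ESC-PGCLCs, Dmc1 was -0.0059, Mei1 -0.38, Msh4 -0.36, Msh5 -0.22 and Trip13 -0.11. In pESC-PGCLCs against pESCs, Mei1 was -0.57. In the interaction, Dmc1 was -0.56, Spo11 -0.33, Mei1 -0.74, Msh4 -0.73 and Msh5 -0.48. In PGCs against ESC-PGCLCs, Mei1 was -0.56, Mei4 -0.38, Msh4 -0.45, Msh5 -0.59, Hormad2 -0.12 and Trip13 -0.26. In PGCs against pESC-PGCLCs, Mei1 was -0.18, Msh4 -0.085, Prdm9 -0.077 and Trip13 -0.15. In PGCs against stem cells, Mei1 was -0.57 and Trip13 -0.40. With quantile normalization, in pESC-PGCLCs against ESC-PGCLCs, Mei1 was -0.039, Msh4 -0.25, Msh5 -0.013 and Trip13 -0.069. In the interaction, Dmc1 was -0.42, Mei1 -0.099 and Msh4 -0.32. In PGCs against ESC-PGCLCs, Mei1 was -0.047, Mei4 -0.38, Msh4 -0.40, Msh5 -0.32, Hormad2 -0.065 and Trip13 -0.15. In PGCs against pESC-PGCLCs, Spo11 was -0.029, Mei1 -0.0081, Msh4 -0.14, Prdm9 -0.11 and Trip13 -0.082. In PGCs against stem cells, Trip13 was -0.074. With voom on recovered reads, in pESC-PGCLCs against ESC-PGCLCs, Msh4 was -0.041. In the interaction, Dmc1 was -0.035, Spo11 -0.67, Mei1 -0.63 and Msh4 -0.45. In PGCs against ESC-PGCLCs, Msh5 was -0.099. With a pseudocount of 0.1, in the interaction, Mei4 was 0.057 and Msh4 -0.097. Leaving out libraries gave ranges that cross 0. In pESCs against ESCs Mei1 ran from -0.013 to 0.055 and Msh5 from -0.16 to 0.017. In pESC-PGCLCs against ESC-PGCLCs Mei1 ran from -0.079 to 0.13 and Msh4 from -0.078 to 0.17. In the interaction Dmc1 ran from -0.056 to 0.42, Mei1 from -0.10 to 0.11, Mei4 from -0.34 to 0.058, Msh4 from -0.11 to 0.14, Hormad2 from -0.34 to 0.058 and Prdm9 from -0.38 to 0.046. In PGCs against ESC-PGCLCs Mei1 ran from -0.075 to 0.16, Msh5 from -0.046 to 0.073 and Prdm9 from -0.36 to 0.065. In PGCs against pESC-PGCLCs Mei1 ran from -0.10 to 0.14, Msh4 from -0.012 to 0.24, Prdm9 from -0.031 to 0.27 and Trip13 from -0.11 to 0.20.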

Other observations

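Transcripts for components of PRC1.6, the complex that holds germ cell genes silent in stem cells, were still detected in the germ cell libraries. Protein was not measured. Pcgf6 was at 24.9 to 45.1 TPM in stem cells and 51.8 to 79.4 TPM in germ cells, Mga at 5.97 to 8.4 TPM and 7.78 to 12.8 TPM, and Max, which binds the E-box letters searched above, at 1.42 to 3.14 TPM and 4.01 to 7.63 TPM. L3mbtl2 was lower in ESC-PGCLCs, at 1.8 and 2.27 TPM, than in ESCs, at 5.92 and 5.02 TPM, with a log2 difference of -1.09 that was called by limma. E2f6 was at 3.95 and 2.76 TPM in ESCs, 1.75 and 2.3 TPM in pESCs, 3.12 and 4.03 TPM in ESC-PGCLCs, 7.86 and 7.23 TPM in pESC-PGCLCs, and 7.2 and 7.02 TPM in PGCs. Its interaction of origin and differentiation was 1.43 ± 0.28 (SE, limma, adjusted p = 0.0093), a term in which 15.5% of all genes were called higher and 3.53% lower.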
